A study of Mus musculus with 138 samples.

Results

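Insulin-like growth factors (IGFs) and their binding proteins were represented by 10 genes. The ligands were Igf1 and Igf2, the receptors were Igf1r and Igf2r, and the binding proteins were Igfbp2, Igfbp3, Igfbp4, Igfbp5, Igfbp6 and Igfbp7. The genes were chosen by name, as ligands, receptors and binding proteins of this pathway, and were 10 of the 55487 genes counted. All 10 were among the 19768 genes that had at least 1 CPM (counts scaled to the size of the library) in more than 10% of the libraries and were tested.

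IGF1 and IGF2 are secreted peptides that drive growth and survival through IGF1R, a receptor tyrosine kinase, whereas IGF2R is the mannose 6-phosphate receptor, which takes up IGF2 and delivers it to lysosomes. The binding proteins (IGFBPs) hold the ligands outside cells, and proteases such as PAPPA, PAPPA2 and HTRA1 cut them and set the ligands free. In the skeleton, IGF1 promotes proliferation and differentiation of osteoblasts, and IGFBP5 binds to bone matrix.

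The study captured regions of 4 calvarial sutures, the fibrous joints between the flat bones of the skull, by laser microdissection from wild-type C57BL/6J mouse embryos and sequenced their RNA. Suture mesenchyme (SM) was compared with the osteogenic fronts (OFs), the growing bone edges on either side of it. In the coronal suture these were a front of the frontal bone (FR) and one of the parietal bone (PA), in the frontal suture FR, in the lambdoid suture a front of the interparietal bone (IP) and PA, and in the sagittal suture PA. Each of the 20 groups of suture, stage (E16.5 or E18.5) and region held 5 libraries, 100 in all from 40 embryos, and SM and OF of the same embryo were captured side by side. No group carried an allele or an agent. Besides these libraries there were 18 second libraries of coronal samples, 16 libraries of complete sutures at E18.5, and 4 single-cell libraries of dissociated coronal sutures, each a pool of embryos, with 2 per stage.

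Total counts of the 100 libraries ranged from 7305627 to 34518477 with a median of 14244957, and every coronal library (20133332 to 34518477) was deeper than every other library, so that suture and depth cannot be told apart in comparisons of the first coronal libraries with other sutures. The second libraries had 5530060 to 17388841 counts, within or below the range of the other sutures. At E16.5 the first coronal libraries, though deep, detected 17274 to 22824 genes and the second coronal libraries 20476 to 23357. Lambdoid libraries of that stage detected 21967 to 25302 genes. The part of this in the coronal levels was not tested. The labelled regions were checked against 12 osteoblast markers: 11 were lower in SM, and their summed level was 24.6 to 1075 CPM in the 40 SM libraries and 2168 to 24500 CPM in the 60 OF libraries. Bglap and Bglap2, the osteocalcin genes of mature osteoblasts, had medians below 0.5 CPM over all 100 libraries, SM and OF together. SM had higher levels of 8 of 8 macrophage markers, 8 of 8 ectocranial mesenchyme markers, 6 of 7 chondrocyte markers and 5 of 8 dura mater markers tested, with summed medians in SM and OF of 195 and 154 CPM, 1434 and 708 CPM, 314 and 81.9 CPM, and 191 and 69.7 CPM. Of 9 proliferation markers 9 were lower in SM, with medians of 1050 and 1742 CPM. Of 10 suture mesenchyme markers 7 were higher in SM and 1, Hhip, was lower, with medians of 2211 and 1688 CPM. Among 6 pericyte markers 4 were higher and 1 was lower, with medians of 301.5 and 329 CPM. The part of these cell types in the levels of the IGF genes was not tested. In captured tissue, fewer cells of a type and less RNA per cell cannot be told apart. The second libraries of coronal samples stood apart from the first for several IGF genes, and coronal results whose call changed with them are given with both. Values given with the second libraries come from a fit in which these replaced the first library of the same sample, 18 of the coronal libraries, while the others remained first libraries.

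Promoter sequences are shown for Igf1, Igfbp2 and Igfbp4, the members with the largest mean excess in SM, and for Igf2r, the only member that was lower in SM. Each window runs from 250 bases before to 50 after a transcription start annotated by RefSeq on GRCm38.p6 (mm10), 5′ to 3′ on the strand of the gene, and capitals mark matches to 6 short motifs searched on both strands. The windows are chr10:87860861-87861160 (+) for Igf1, chr1:72824230-72824529 (+) for Igfbp2, chr11:99040994-99041293 (+) for Igfbp4 and chr17:12769657-12769956 (-) for Igf2r.
Igf1: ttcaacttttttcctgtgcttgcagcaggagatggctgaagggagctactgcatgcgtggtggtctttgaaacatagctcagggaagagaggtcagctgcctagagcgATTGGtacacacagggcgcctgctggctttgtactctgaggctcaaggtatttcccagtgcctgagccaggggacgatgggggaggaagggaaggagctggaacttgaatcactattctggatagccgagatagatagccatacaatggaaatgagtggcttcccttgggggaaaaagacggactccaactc
Igfbp2: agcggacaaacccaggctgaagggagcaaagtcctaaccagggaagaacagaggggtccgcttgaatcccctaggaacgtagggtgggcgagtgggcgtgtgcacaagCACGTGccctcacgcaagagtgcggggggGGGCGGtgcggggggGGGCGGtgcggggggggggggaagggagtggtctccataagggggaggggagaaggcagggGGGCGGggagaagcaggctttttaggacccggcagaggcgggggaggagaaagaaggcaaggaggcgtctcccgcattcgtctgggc
Igfbp4: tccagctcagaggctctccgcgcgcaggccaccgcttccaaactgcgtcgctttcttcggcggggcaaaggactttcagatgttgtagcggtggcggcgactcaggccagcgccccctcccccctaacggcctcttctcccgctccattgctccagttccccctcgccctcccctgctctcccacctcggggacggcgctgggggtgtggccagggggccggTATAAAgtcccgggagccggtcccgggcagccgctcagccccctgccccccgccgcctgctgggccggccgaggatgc
Igf2r: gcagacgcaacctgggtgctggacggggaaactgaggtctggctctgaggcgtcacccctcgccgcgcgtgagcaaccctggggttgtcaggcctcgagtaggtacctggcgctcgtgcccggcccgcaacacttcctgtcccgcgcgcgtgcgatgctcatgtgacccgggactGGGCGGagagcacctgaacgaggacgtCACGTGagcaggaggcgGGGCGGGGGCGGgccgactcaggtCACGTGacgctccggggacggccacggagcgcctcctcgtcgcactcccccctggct

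The motifs were TATAAA (in 13.6% of 32851 mouse promoters of the same 300 bases; called a TATA box below), TGTGGT (bound by RUNX factors, 16.8%), GGAATG (bound by TEAD factors, 14.7%), CACGTG (an E-box, 7.15%), CCAAT (37.4%) and GGGCGG (GC box, 35.7%), and no matches in the members overlapped each other. The Igf1 window held 1 match, a CCAAT box on the opposite strand 142 bases before the start. That start lies within the gene, which begins at chr10:87858265 in the count annotation, and no window is shown there. A second annotated start of Igfbp2 (chr1:72825137-72825436, 57.3% GC) held no match. The Igfbp2 window shown held an E-box at -142 and GC boxes at -113, -98 and -37, Igfbp4 a TATA box at -28, and Igf2r E-boxes at -48 and -7 and GC boxes at -75, -31 and -25. The GC content was 52.3% for Igf1, 67.0% for Igfbp2, 71.3% for Igfbp4 and 70.7% for Igf2r, against a median of 52.7% over all promoters. No motif was shared by all of Igf1, Igfbp2 and Igfbp4. A match describes the letters of the window only.

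Expression per length of transcript (FPKM, which allows genes to be compared with each other) spanned a wide range within the family. Igfbp5 was the most abundant member, with a median over groups of 167 FPKM in SM and 136 FPKM in OF, followed in SM by Igfbp4 (98.5 FPKM), Igfbp3 (60.2 FPKM), Igf2r (49.1 FPKM) and Igf1 (43.6 FPKM), with Igf2 left aside. In OF, again without Igf2, the order below Igfbp5 was Igf2r (67.2 FPKM), Igfbp3 (49.4 FPKM), Igfbp4 (43.0 FPKM) and Igfbp7 (24.9 FPKM), with Igf1 at 8.30 FPKM and Igfbp2 at 4.27 FPKM. Igfbp6 was near the limit of detection in both, at 0.904 and 0.821 FPKM. When the 20 groups were ordered by mean level, neighbouring groups overlapped in their libraries in 18 or 19 of 19 steps for every member, and the only neighbours that did not overlap were 1 pair each for Igf1 (coronal SM at E18.5 above coronal SM at E16.5), Igfbp5 and Igfbp6.

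**Figure D1:**
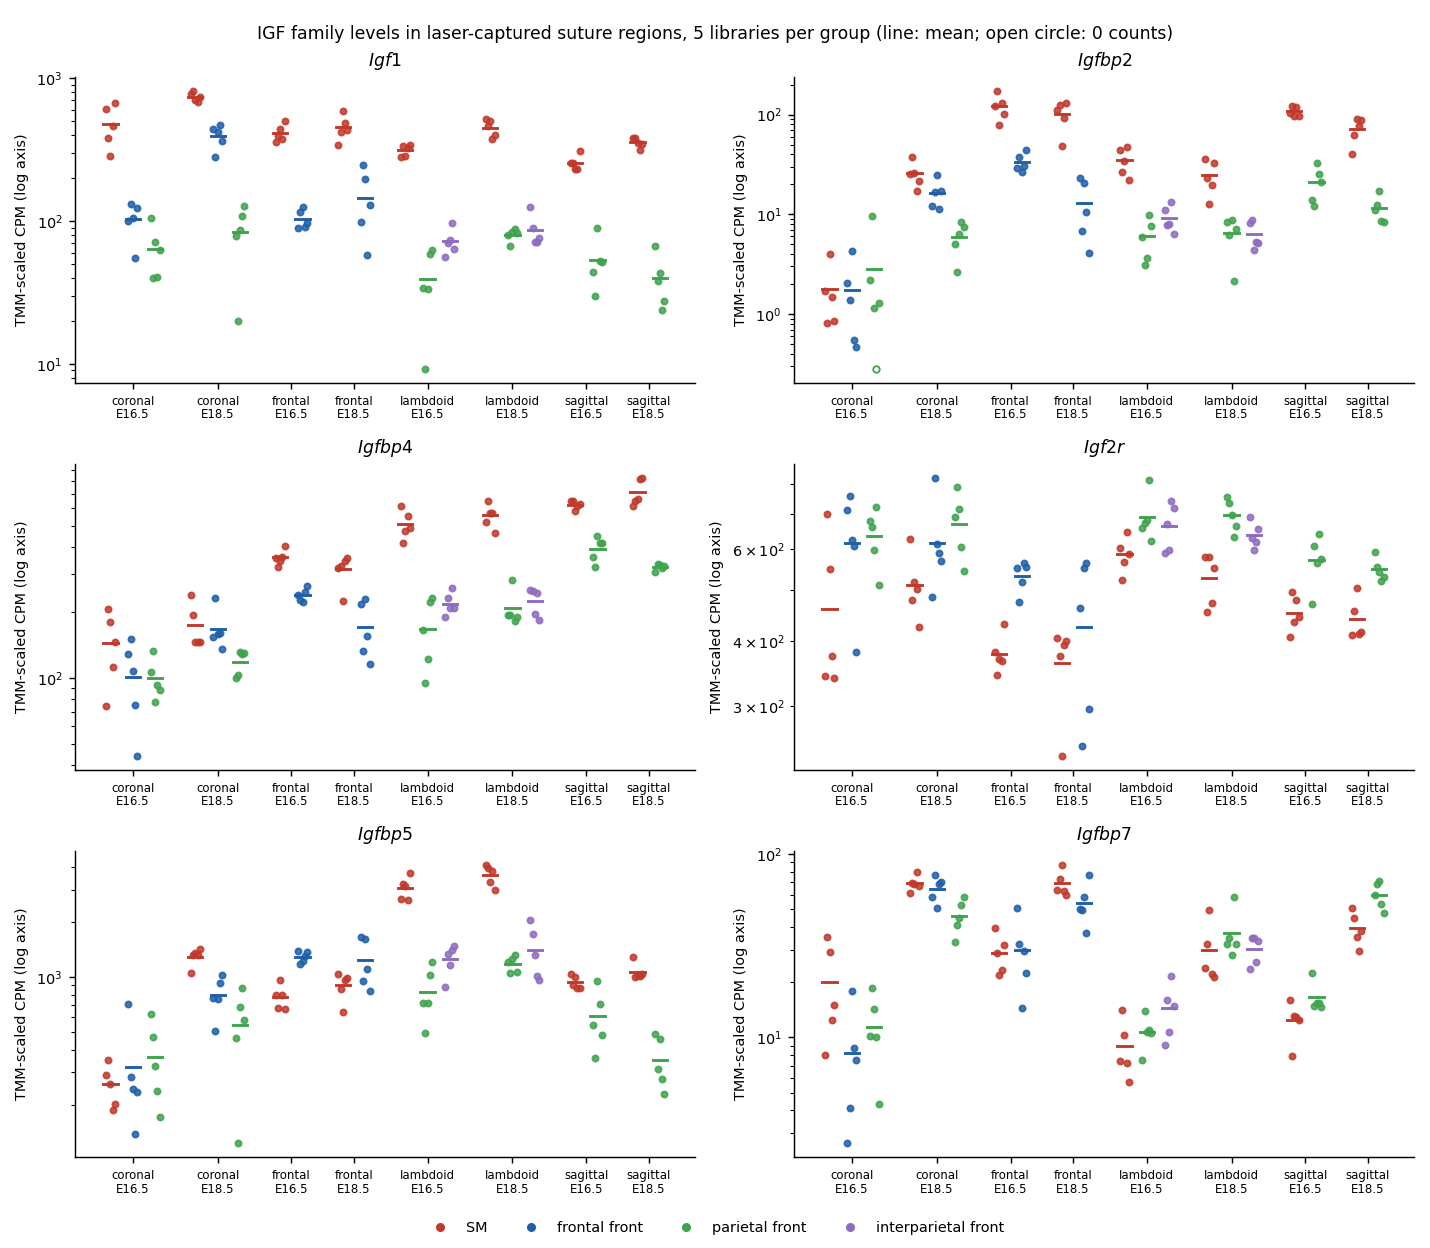
Levels in CPM (log scale) of Igf1, Igfbp2, Igfbp4, Igf2r, Igfbp5 and Igfbp7 in the 100 libraries, by suture, stage and region. Points are libraries, lines are group means of 5 and open circles mark libraries with 0 counts. Igf1 was at 230 to 811 CPM in SM libraries, Igfbp2 fell to 0.813 to 3.99 CPM in coronal SM at E16.5, and Igfbp5 reached 4080 CPM in lambdoid SM.

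SM was compared with the OFs of the same suture and stage to ask which IGF genes distinguish the unossified mesenchyme from the bone edge. Of 80 comparisons (10 genes in 4 sutures at 2 stages), 37 passed the threshold of an adjusted p under 0.05 (edgeR's quasi-likelihood test, Benjamini-Hochberg adjustment over all genes tested), 34 with a higher level in SM and 3 with a lower one, and in 33 comparisons the libraries of SM and OF did not overlap (16.4% of all genes and comparisons did not). Averaged over the 8 comparisons, 7 members were higher in SM, 1 was lower and 2 did not pass, while 55.4% of all genes passed. The median log2 difference of the 10 members was 0.44, that of all genes 0.04.

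The shares by suture are read against the share of all genes that passed. In the coronal suture 4 of 10 members passed at E16.5 (37.5% of all genes) and 3 at E18.5 (12.4%). In the frontal suture 3 passed at E16.5 (7.91%) and 4 at E18.5 (11.1%). In the lambdoid suture 6 passed at each stage (22.7% at E16.5 and 28% at E18.5), and in the sagittal suture 4 passed at E16.5 (17.7%) and 7 at E18.5 (25.3%). At E16.5 the coronal share of members was thus near that of all genes, and in the other comparisons it was higher. The pattern was led by Igf1, which passed in 8 of 8 comparisons, Igfbp2 (7 of 8) and Igfbp4 (6 of 8).

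**Figure D2:**
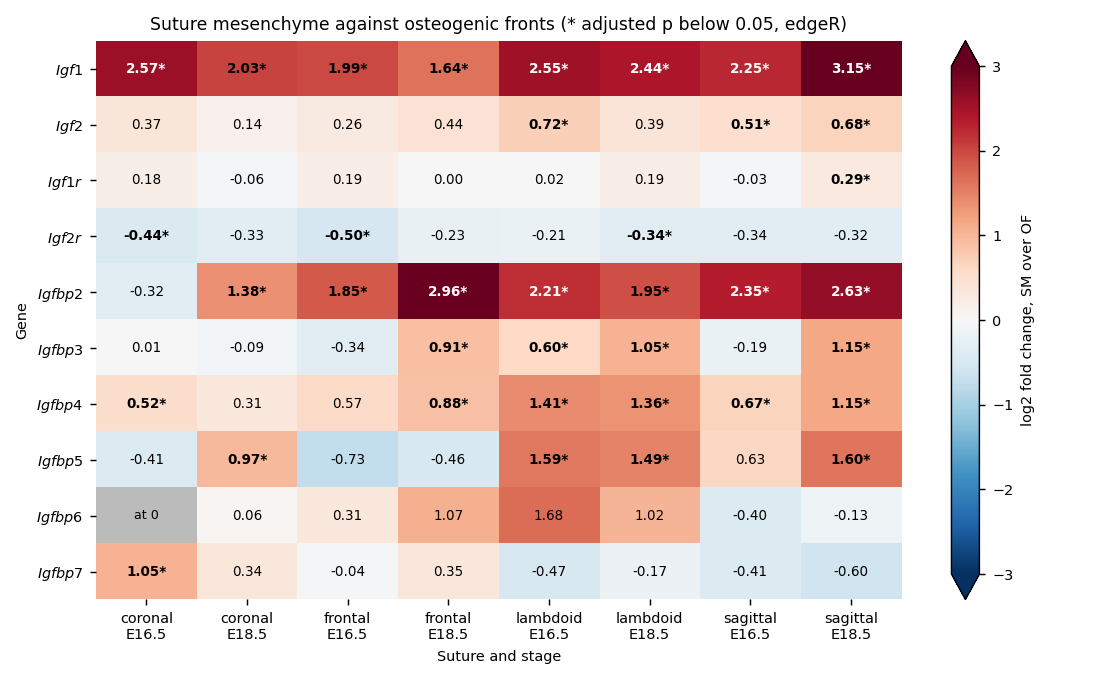
Log2 difference of SM minus OF for the 10 genes in the 8 combinations of suture and stage, from the edgeR fit with 5 SM libraries and 5 or 10 OF libraries. Red is higher and blue lower in SM, asterisks mark an adjusted p under 0.05, and the grey cell marks Igfbp6 at 0 counts in both regions. Igf1 was higher in SM in every column, and Igf2r was lower in every column though only 3 of its values passed.

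Igf1 (ENSMUSG00000020053.18, chr10:87858265-87937042 on the plus strand of mm10) encodes the ligand through which growth hormone acts in many tissues. In the sagittal suture at E18.5 its levels in the 5 SM libraries were 381, 381, 352, 313 and 348 CPM, and in the 5 PA libraries 67.0, 38.1, 43.1, 23.7 and 27.5 CPM. Every SM library was above every PA library, and the difference was 8.91-fold (log2 3.15 ± 0.31 SE, adjusted p = 1.30e-14 by edgeR). This was the widest difference of the 8.

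The narrowest was in the frontal suture at E18.5, where SM had 340, 419, 587, 484 and 434 CPM and FR 98.6, 245, 195.7, 57.9 and 130 CPM. SM and FR did not overlap there either, and the log2 difference was 1.64 ± 0.29 (adjusted p = 1.06e-05). The other values were 2.57 ± 0.24 and 2.03 ± 0.23 in the coronal, 1.99 ± 0.29 in the frontal at E16.5, 2.55 ± 0.24 and 2.43 ± 0.24 in the lambdoid, and 2.25 ± 0.30 in the sagittal suture at E16.5. Igf1 was higher in SM in 60 of 60 pairs of SM and OF libraries from the same embryo (an SM library enters 2 pairs where the suture has 2 fronts), and the mean over the 8 comparisons was 2.33 ± 0.10, a 5.02-fold difference. All 11 alternative fits kept each of the 8 calls.

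Igf2 (ENSMUSG00000048583.16, chr7:142650766-142666816 on the minus strand), an imprinted fetal growth factor, was modestly higher in SM. In the lambdoid suture at E16.5, SM had 189, 120, 149, 133 and 165 CPM, IP had 105, 99.4, 105, 93.0 and 72.7 CPM, and PA had 76.3, 99.1, 76.7, 83.2 and 107 CPM. All SM libraries were above all OF libraries (log2 0.72 ± 0.16, adjusted p = 0.000185 by edgeR). In the sagittal suture the log2 differences were 0.51 ± 0.18 at E16.5 (adjusted p = 0.0422, lost in 6 of 11 alternatives) and 0.68 ± 0.18 at E18.5, and the call at E18.5 was lost with the second coronal libraries (adjusted p = 0.0993). The other 5 values, 0.14 to 0.44, did not pass. With the embryo as a block, 3 of these passed as well: coronal at E16.5 (0.36), frontal at E18.5 (0.45) and lambdoid at E18.5 (0.38). Igf2 was higher in SM in 55 of 60 pairs, with a mean difference of 0.44 ± 0.06. Of its 5723 exon bases, 3694 (64.5%) overlap other genes, and reads on such bases were assigned to none, so the level rests on 2029 bases and is uncertain. Its median over groups was 30.3 FPKM in SM and 23.1 FPKM in OF over all exon bases, and 85.4 and 65.2 FPKM over those 2029 bases, so its place among the members depends on the length used.

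Igf1r and Igf2r differed little between the regions. Igf1r (ENSMUSG00000005533.10, chr7:67952827-68233668, plus strand), the signalling receptor, passed only in the sagittal suture at E18.5, at 180 ± 19.01 CPM in SM and 147 ± 18.3 CPM in PA (SD, n = 5 each). The libraries overlapped. That difference was 0.29 ± 0.11 in log2, and the mean over the 8 comparisons was 0.10 ± 0.04 (adjusted p = 0.0134 by edgeR). Both calls were lost in some alternatives, with adjusted p up to 0.155 and 0.0896.

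Igf2r (ENSMUSG00000023830.14, chr17:12682406-12769664, minus strand) was lower in SM in 55 of 60 pairs, by -0.34 ± 0.05 on average. In the frontal suture at E16.5, SM libraries had 381, 344, 370, 366 and 430 CPM and FR libraries 553, 476, 519, 564 and 555 CPM. The regions did not overlap (log2 -0.50 ± 0.15, adjusted p = 0.0216 by edgeR). The coronal suture at E16.5 (-0.44 ± 0.13) and the lambdoid at E18.5 (-0.34 ± 0.13) also passed, but the lambdoid call was lost in 9 of 11 alternatives, the coronal one with the second libraries (-0.27) and without replicate 1 or 4, and the frontal one without replicate 1, 3 or 4. The 5 values that did not pass were -0.34 to -0.21, of which the coronal one at E18.5 passed with the second libraries (-0.46). The mean kept its call in all 11 alternatives.

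Among the binding proteins, Igfbp2 (ENSMUSG00000039323.18, chr1:72824503-72852474, plus strand), which binds IGF2 with high affinity, had the widest differences. In the frontal suture at E18.5 it was at 112, 126, 48.6, 93.0 and 131 CPM in SM and at 23.3, 6.81, 20.4, 10.6 and 4.07 CPM in FR. The lowest SM library was above the highest FR library (log2 2.96 ± 0.45, 7.78-fold, adjusted p = 3.14e-07 by edgeR). The other 5 values outside the coronal suture were 1.85 to 2.63, each past the threshold. In the coronal suture at E16.5, SM was at 1.72, 0.813, 3.99, 1.49 and 0.847 CPM, FR at 2.07, 1.38, 4.33, 0.552 and 0.468 CPM, and PA at 2.19, 9.57, 1.16, 0 and 1.30 CPM. These groups overlapped throughout (log2 -0.32 ± 0.42, and 0.56 with the second libraries, neither past the threshold). At E18.5 the coronal difference was 1.38 ± 0.35 (adjusted p = 0.00331), from 25.7 ± 7.68 CPM in SM against 16.4 ± 5.49 in FR and 5.95 ± 2.21 in PA (SD, n = 5 each), with overlapping libraries. With the second coronal libraries it was 1.03 and did not pass (adjusted p = 0.148, the highest of the 11 alternatives, the lowest being 4.90e-05).

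Igfbp4 (ENSMUSG00000017493.12, chr11:99041244-99054392, plus strand), an inhibitor of IGF action that PAPPA cuts, was higher in SM in 54 of 60 pairs. In the lambdoid suture at E18.5, SM had 521, 652, 575, 573 and 465 CPM, IP had 255, 252, 196.2, 246 and 184 CPM, and PA had 195, 194, 282, 182 and 191 CPM. The SM libraries were all above the OF libraries (log2 1.36 ± 0.16, adjusted p = 4.11e-11 by edgeR). The lambdoid value at E16.5 was 1.41 ± 0.16, the sagittal values 0.67 ± 0.19 and 1.15 ± 0.20, the frontal ones 0.57 ± 0.19 (adjusted p = 0.0515) and 0.88 ± 0.20, and the coronal ones 0.52 ± 0.17 and 0.31 ± 0.17 (adjusted p = 0.243). The coronal call at E16.5 was lost with the second libraries (0.63, adjusted p = 0.0525) and without replicate 3, and the sagittal call at E16.5 with the second coronal libraries.

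Igfbp5 (ENSMUSG00000026185.8, chr1:72857932-72874884, minus strand), which lies close to Igfbp2 on chromosome 1, was higher in SM in 4 of 8 comparisons. Its highest level was in lambdoid SM at E18.5, at 4080, 3929, 3287, 3769 and 2991 CPM, while IP had 2034, 1711, 1324, 1014 and 962 CPM and PA 1208, 1045, 1252, 1322 and 1064 CPM. No lambdoid OF library reached the lowest SM library, with log2 differences of 1.59 ± 0.23 at E16.5 and 1.49 ± 0.23 at E18.5 (adjusted p = 1.01e-07 by edgeR for the latter). In the frontal suture at E16.5 it was at 796, 676, 960, 799 and 664 CPM in SM and at 1393, 1179, 1214, 1295 and 1373 CPM in FR. All FR libraries were above all SM libraries, but the difference (-0.73 ± 0.27, adjusted p = 0.0934) passed only with the embryo as a block (-0.74). At E18.5 the frontal means were 897 CPM in SM and 1231 CPM in FR, and that difference did not pass. Over pairs of the same embryo Igfbp5 was higher in SM in 20 of 20 lambdoid and 10 of 10 sagittal pairs and in 1 of 10 frontal pairs. The sagittal values were 0.63 ± 0.27 at E16.5 (adjusted p = 0.110, past the threshold with the embryo as a block at 0.70) and 1.599 ± 0.28 at E18.5, and the coronal values -0.41 ± 0.24 and 0.97 ± 0.23 (adjusted p = 0.00132).

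Igfbp3 (ENSMUSG00000020427.11, chr11:7206086-7213923, minus strand), the main carrier of IGFs in serum, was higher in SM at E18.5 in 3 of 4 sutures. In the frontal suture at E18.5, SM libraries had 443, 377, 381, 466 and 412 CPM and FR libraries 278, 188, 284, 159 and 195 CPM. Every SM library was above every FR library (log2 0.91 ± 0.26, adjusted p = 0.0108 by edgeR), and the call was lost with the second coronal libraries and without replicate 4 or 5. The lambdoid value was 1.05 ± 0.22 and the sagittal 1.15 ± 0.26, while the coronal one was -0.09 ± 0.23. At E16.5 only the lambdoid suture passed (0.60 ± 0.22, adjusted p = 0.0375), and this call was lost with the second coronal libraries and without replicate 1, 2 or 3.

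Igfbp7 (ENSMUSG00000036256.13, chr5:77349240-77408041, minus strand), a matrix protein of low affinity for IGFs that is known from vessels, was higher in coronal SM at E16.5. Its 5 SM libraries there had 7.98, 35.2, 29.3, 12.4 and 15 CPM, FR had 2.65, 4.09, 17.8, 8.73 and 7.55 CPM, and PA had 10.1, 18.49, 14.3, 9.99 and 4.33 CPM. The groups overlapped, with a log2 difference of 1.05 ± 0.25 (adjusted p = 0.000454 by edgeR, and 0.73 with the second libraries, also past the threshold), and the other 7 comparisons gave -0.60 to 0.35, of which none passed. Summed vessel markers had means there of 496 CPM in SM against 337 and 305 CPM in FR and PA for pericytes and 298 against 197.7 and 222 CPM for endothelium, and their part was not tested. Igfbp6 (ENSMUSG00000023046.6, chr15:102144362-102149511, plus strand), which prefers IGF2, passed in none of the comparisons. Its group means were 0.385 to 5.18 CPM outside the coronal suture at E16.5, and all 15 coronal libraries of E16.5 had 0 counts.

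E18.5 was compared with E16.5 within each suture and region. By their labels the embryos of the stages came from different litters, so stage cannot be told apart from litter or library preparation. Of 80 comparisons 24 passed, 21 with a higher and 3 with a lower level at E18.5, but 15 of the 24 were in the coronal suture, where many genes changed. In coronal OF 8 members passed (33.1% of all genes) and in coronal SM 7 (27.1%). In the frontal suture 1 passed in OF (4.34%) and 2 in SM (2.33%), in the lambdoid suture 2 in OF (3.29%) and 1 in SM (2.96%), and in the sagittal suture 1 in OF (1.6%) and 2 in SM (1.12%). Averaged over the 4 sutures, 4 members were higher at E18.5 in OF (12.2% of all genes passed in either direction) and 5 in SM (11.1%), and none was lower. The median log2 change of the members was 0.53 in SM and 0.06 in OF, and that of all genes was 0.0012 and 0.0056.

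**Figure D3:**
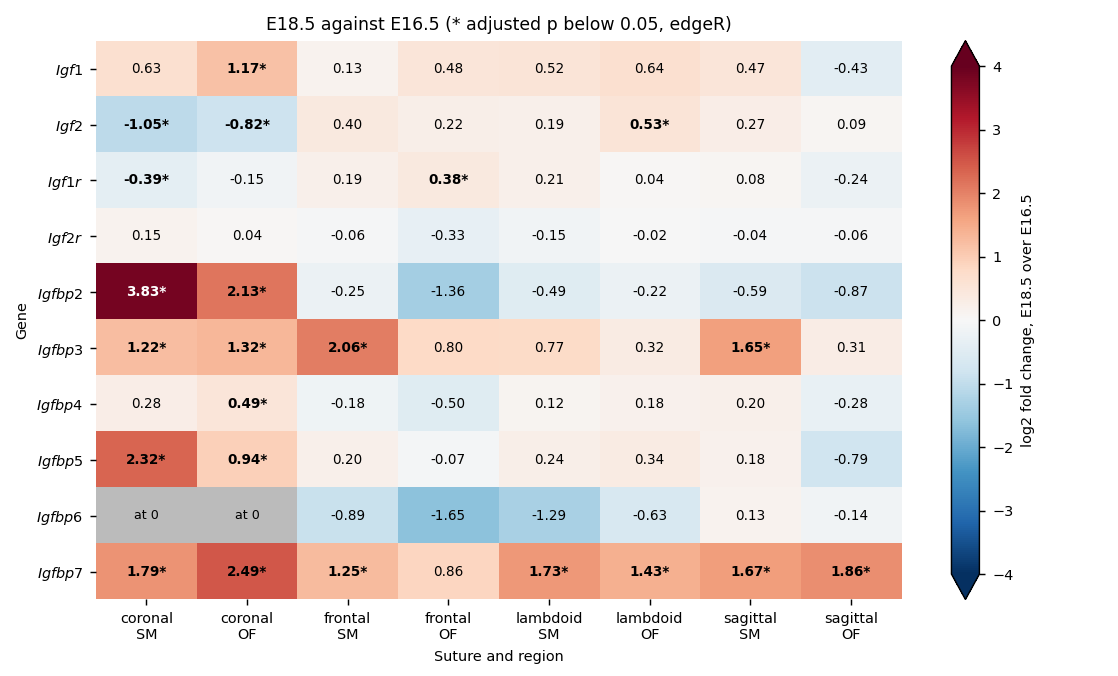
Log2 difference of E18.5 minus E16.5 for the 10 genes in OF and SM of each suture, from the edgeR fit. Red is higher and blue lower at E18.5, asterisks mark an adjusted p under 0.05, and grey cells mark Igfbp6 in the coronal suture, which was at 0 counts at E16.5. Igfbp7 was higher in all 8 columns, and most of the other values past the threshold lie in the coronal columns.

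Igfbp7 rose from E16.5 to E18.5 in 7 of 8 comparisons, and in these 7 the libraries of the stages did not overlap (6.2% of all genes and comparisons did not). In sagittal SM it was at 16.04, 7.86, 12.99, 12.96 and 12.4 CPM at E16.5 and at 50.7, 44.8, 35.1, 29.4 and 37.8 CPM at E18.5. The log2 change was 1.67 ± 0.30 (3.18-fold, adjusted p = 0.000288 by edgeR). Changes in the other called comparisons were 1.25 ± 0.30 in frontal SM, 1.73 ± 0.31 in lambdoid SM, 1.79 ± 0.30 in coronal SM, 1.43 ± 0.22 in lambdoid OF, 1.86 ± 0.30 in sagittal OF and 2.49 ± 0.22 in coronal OF, and frontal OF gave 0.86 ± 0.30 (adjusted p = 0.0768). The frontal SM call was lost without replicate 3 or 4. The mean over sutures was 1.61 ± 0.15 in SM and 1.66 ± 0.13 in OF. Of 6 pericyte markers, genes of the mural cells of vessels, 2 rose and 1 fell in SM and 5 rose and 1 fell in OF, with a summed median of 265 CPM at E16.5 and 377 CPM at E18.5, and of 7 endothelial markers 3 rose in SM and 2 in OF. The part of vessel cells in the rise of Igfbp7 was not tested.

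Igfbp3 rose in SM by 1.42 ± 0.13 on average and in OF by 0.69 ± 0.11. In frontal SM its levels were 119, 61.9, 92.4, 127 and 100.1 CPM at E16.5 and 443, 377, 381, 466 and 412 CPM at E18.5. The lowest library of E18.5 was far above the highest of E16.5 (log2 2.06 ± 0.27, 4.16-fold, adjusted p = 7.30e-08 by edgeR). Sagittal SM (1.65 ± 0.27), coronal SM (1.22 ± 0.26) and coronal OF (1.32 ± 0.19) also passed, coronal SM not with the second libraries (0.88). Summed ectocranial mesenchyme markers went from 1663 to 2728 CPM in frontal SM (group means). They went from 1865 to 1666 CPM in sagittal, 1365 to 1311 CPM in lambdoid and 509 to 347 CPM in coronal SM. The part of these cells in the Igfbp3 changes was not tested. The excess of SM over OF was larger at E18.5 than at E16.5 by 0.74 ± 0.17 for Igfbp3 (adjusted p = 0.0138), the only member past the threshold in this test of the difference between stages, in which 0.703% of all genes passed. This call was lost with the second coronal libraries and without replicate 1, 2 or 5 (adjusted p up to 0.171). With the embryo as a block Igfbp5 also passed (0.63).

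Igf1 rose on average by 0.44 ± 0.14 in SM (adjusted p = 0.0291) and by 0.47 ± 0.12 in OF (adjusted p = 0.00526 by edgeR), although among single comparisons only coronal OF passed (1.17 ± 0.20), joined by coronal SM with the second libraries (0.87). Sagittal OF went the other way (-0.43), from a mean of 53.6 CPM at E16.5 to 39.9 CPM at E18.5, without passing. Without replicate 1 neither mean passed, and the SM mean was also lost without replicate 3 (0.36, adjusted p = 0.186) or 4. Igf2 fell in the coronal suture, where SM libraries had 107, 233, 226, 155 and 149 CPM at E16.5 and 94.3, 108, 80.2, 64.5 and 71.3 CPM at E18.5. The stages overlapped in SM, with log2 changes of -1.05 ± 0.19 in SM and -0.82 ± 0.13 in OF. Both calls rested on the first libraries, since the second coronal libraries gave -0.22 and 0.24, neither past the threshold. In lambdoid OF Igf2 rose by 0.53 ± 0.13 (adjusted p = 0.00885), a call lost with the second coronal libraries and without replicate 1. Igf1r changed in frontal OF (0.38 ± 0.11, adjusted p = 0.0250) and coronal SM (-0.39 ± 0.11), the latter at 0.13 with the second libraries and lost without replicate 1. The frontal call was lost in 5 of 10 alternatives (adjusted p up to 0.353), and Igf2r passed in none of the 8.

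Igfbp2 and Igfbp5 rose between the stages in the coronal suture and passed in no other suture. Coronal SM had 0.813 to 3.99 CPM of Igfbp2 at E16.5 and 25.6, 37.9, 26.1, 17.3 and 21.6 CPM at E18.5. The stages did not overlap (log2 3.83 ± 0.49, 14.2-fold, adjusted p = 2.96e-09 by edgeR), and with the second libraries the change was 2.56. Coronal OF gave 2.13 ± 0.33, and the 6 values of the other sutures were -1.36 to -0.22, none past the threshold. Igfbp5 in coronal SM had 290, 350, 260, 187 and 203 CPM at E16.5 and 1055, 1316, 1357, 1313 and 1416 CPM at E18.5. All 5 later libraries were higher (log2 2.32 ± 0.29, 5.00-fold, adjusted p = 1.43e-09), and in coronal OF the change was 0.94 ± 0.19. The means over the 4 sutures in SM, 0.63 ± 0.21 for Igfbp2 (adjusted p = 0.0402) and 0.74 ± 0.14 for Igfbp5, thus rested on the coronal suture. The Igfbp2 mean was 0.31 with the second coronal libraries (adjusted p = 0.613), and its call was also lost without replicate 1, 2 or 5. Igfbp4 passed only in coronal OF (0.49 ± 0.14), where the second libraries gave 0.31, and the call was also lost without replicate 4 or 5. Summed markers of coronal SM went from 5456 to 11330 CPM for periosteal cells, 70.0 to 231 CPM for chondrocytes, 84.0 to 229 CPM for macrophages and 2922 to 1658 CPM for proliferating cells (group means), and their part in the coronal changes was not tested. The sum need not stand for a whole list: averaged over the 4 sutures in SM, 1 of 7 chondrocyte markers rose (Acan) and 4 fell.

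Igfbp6 had 0 counts in the 15 coronal libraries of E16.5 and 79 counts in the 5 SM and 159 in the 10 OF libraries of E18.5. Replicate 3 of SM held 60 of the 79 counts. Over the level that 3 counts in the group would give, it was in these first libraries at least 31.3-fold higher at E18.5 in SM (9.48-fold without replicate 3) and at least 59.1-fold higher in OF. With the second libraries, which hold counts at E16.5, the fitted changes were 24.7-fold in SM and 12.04-fold in OF, so the bounds hold for the first libraries alone. The mean over the 4 sutures in OF (adjusted p = 0.0357) rested on these zeros and was lost in 8 of 10 alternatives. Of the 9 second libraries of E16.5, 6 held Igfbp6 counts, whereas the first libraries held none. Summed hypodermis markers of the coronal groups went from 17.04 to 144 CPM in SM and from 10.6 to 156 CPM in FR, but only from 18.9 to 57.8 CPM in PA (group means), where Igfbp6 at E18.5 was at 1.03 CPM against 0.385 CPM in FR and 0.653 CPM in SM, and their part in the Igfbp6 levels was not tested.

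The excess of SM over OF was compared between the coronal suture and the mean of the other sutures, and 4 members differed (21.3% of all genes). The coronal excess was lower for Igfbp2 by -1.80 ± 0.33 (adjusted p = 2.19e-05 by edgeR), for Igfbp4 by -0.59 ± 0.14 (adjusted p = 0.00110) and for Igfbp3 by -0.57 ± 0.19 (adjusted p = 0.0230), and higher for Igfbp7 by 0.92 ± 0.21 (adjusted p = 0.000608). Igf1 did not differ beyond its error (-0.04 ± 0.21). With the second coronal libraries only 2 members passed, Igfbp2 (-1.53) and Igfbp7 (0.74), the values for Igfbp4 (-0.50) and Igfbp3 (-0.52) missing the threshold, and the Igfbp3 call was also lost with limma-voom and without replicate 3, 4 or 5. Summed ectocranial mesenchyme markers were at 347 to 509 CPM in coronal SM and at 1311 to 2728 CPM in SM of the other sutures, and dura mater markers at 124 to 147 CPM in coronal, 133 to 140 CPM in lambdoid and 239 to 503 CPM in sagittal and frontal SM (group means). The part of these cells in the low coronal Igfbp2 was not tested.

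The fronts of a suture were compared with each other where there were 2 of them. In the coronal suture at E18.5, Igf1 was at 443, 280, 418, 468 and 361 CPM in FR and at 78.8, 20.1, 87.1, 108 and 128 CPM in PA. Every FR library was above every PA library (log2 2.22 ± 0.30, 4.68-fold, adjusted p = 5.86e-08 by edgeR, and 2.39 with the second libraries), while both fronts were below SM at 681 to 811 CPM. Igfbp2 was also higher in FR, by 1.47 ± 0.43 (adjusted p = 0.0258 by edgeR), so 2 of 10 members passed (5.44% of all genes). The Igfbp2 call was lost with the second libraries (1.32) and without replicate 1, 2 or 3. No member passed between the coronal fronts at E16.5 (14.4% of all genes) or between the lambdoid fronts at E16.5 (0.486%) and E18.5 (0.0101%), and the Igf1 values there were 0.69, 0.86 and 0.10. In coronal FR at E18.5 the summed markers of dura mater (140 ± 29.5 CPM), endothelium (289 ± 87.7 CPM) and hypodermis (156 ± 46.4 CPM) were also above those in PA (51.6 ± 15.4, 71.3 ± 12.2 and 57.8 ± 27.3 CPM), and the osteoblast markers were at 3852 ± 1721 CPM in FR and 10060 ± 3487 CPM in PA (SD, n = 5 each). Suture mesenchyme markers were also higher in FR (2876 ± 284 against 2308 ± 272 CPM), whereas ectocranial mesenchyme markers were lower (262 ± 79.6 against 557 ± 254 CPM). The part of these cell types in the Igf1 difference was not tested.

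The second coronal libraries, 9 per stage and each with a first library of the same sample, measured how far the levels depend on the library. Igfbp2, Igfbp3 and Igfbp4 were higher in the second library in 9 of 9 samples at each stage, with median log2 ratios at E18.5 of 1.61, 0.59 and 1.08. At E16.5 the median ratios were 0.67 for Igfbp3 and 1.15 for Igfbp4, and Igfbp2 had a median of 2.08 CPM in the first and 15.1 CPM in the second libraries. Igf1 was lower in 9 of 9 at each stage, by medians of -0.32 and -0.25. Igf2 was higher in 8 of 9 samples at E16.5 (median 0.58) and in 9 of 9 at E18.5 (1.99). The labels do not say how the second libraries were made. With them the Igf1 differences between coronal SM and OF were 2.41 and 2.12 at E16.5 and E18.5.

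**Figure D4:**
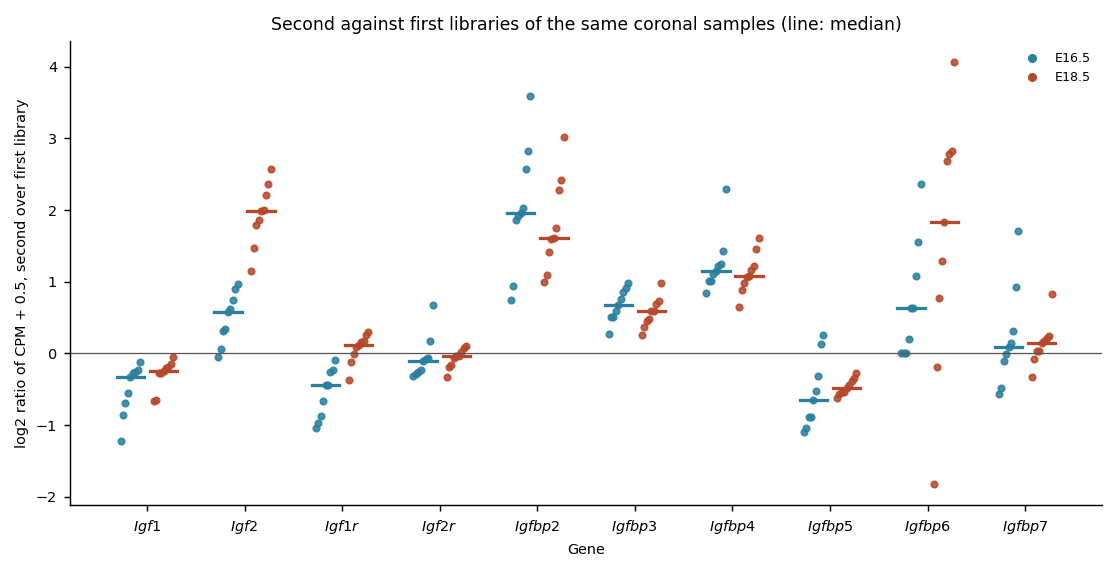
Log2 ratio of the second to the first library of the same coronal sample (CPM plus 0.5) for the 10 genes, 9 samples at E16.5 and 9 at E18.5, with the line at 0 for equal levels. Igfbp2 and Igfbp4 lie above 0 in all samples and Igf1 below 0, and Igf2 is shifted more at E18.5 (median 1.99) than at E16.5 (0.58).

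In the 16 complete-suture libraries of E18.5, 4 sets of 1 library per suture, Igfbp2 was at 18.6 to 40.4 CPM in the coronal suture, at 83.9 to 164 CPM in the lambdoid, at 152 to 347 CPM in the frontal and at 197 to 402 CPM in the sagittal suture. Igf1 was at 264 to 306 CPM in the coronal suture and at 403 to 544 CPM in the others. Igf2 varied by set, with medians over the 4 sutures of 82.3, 145, 191 and 217 CPM. In captured SM of that stage the mean of Igfbp2 was 25.7 CPM in the coronal, 24.8 CPM in the lambdoid, 71.6 CPM in the sagittal and 102 CPM in the frontal suture. In these first libraries the coronal and lambdoid means were thus below the others there too, but close to each other. The second libraries of coronal SM at E18.5 had 52.0, 88.0 and 94.7 CPM of Igfbp2, so the place of the coronal suture depends on the library. The Igf1 mean was highest in the coronal suture (742 CPM), unlike in the complete sutures. The complete-suture libraries have no replicate within a set and were not tested.

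The wider pathway was described by 5 lists, beside a median log2 difference of 0.04 for all genes (mean of the 8 SM and OF comparisons, edgeR, 55.4% of all genes past the threshold). Of 6 proteases of IGFBPs and their inhibitors, 3 were higher in SM: Pappa (1.49 ± 0.15), the protease of IGFBP4, Pappa2 (1.21 ± 0.08), which cuts IGFBP3 and IGFBP5, and Htra1 (1.27 ± 0.07). The inhibitor Stc2 (-0.51 ± 0.15) and the protease Adam12 (-1.13 ± 0.06) were lower, and the median of the list was 0.57. In the growth hormone axis, 3 of 4 genes tested were higher in SM, namely Ghr, the growth hormone receptor (1.53 ± 0.06), Stat5b (0.41 ± 0.08) and Socs2, a target of the receptor (0.56 ± 0.07), with a median of 0.49.

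Of 13 receptors and signal transducers tested, 3 were higher in SM (Shc1 at 0.39 ± 0.04, Pik3r1 at 0.33 ± 0.04 and Grb10 at 0.19 ± 0.03) and 5 were lower, among them Foxo1 (-1.10 ± 0.05), a transcription factor that the pathway holds out of the nucleus, and the adaptor Irs1 (-0.35 ± 0.07). The median was 0.02, close to that of all genes. Of 3 other IGF-binding or related genes tested, Htra3 was higher (0.45 ± 0.10) and Kazald1 lower (-1.49 ± 0.09), with a median of 0.39. Of 6 RNA-binding and imprinted partners, Plagl1 (0.76 ± 0.08), Hmga2 (0.28 ± 0.12) and H19 (0.15 ± 0.05), the noncoding neighbour of Igf2, were higher and Igf2bp1 (-0.22 ± 0.06) and Igf2bp2 (-0.15 ± 0.05) were lower, with a median of 0.05. Between the stages in SM, where 11.1% of all genes passed, 3 of 6 protease genes (Pappa, Stc2 and Htra1), 3 of 3 other binding genes (Kazald1, Esm1 and Htra3), 2 of 13 receptors and transducers (Insr and Foxo3), Socs2 and H19 rose, and 1 transducer and 3 RNA-binding or imprinted genes fell.

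The genes whose differences between SM and OF ran most like those of each member were read from correlations over the 60 pairs of the same embryo. Pairs of 1 suture share SM libraries and library composition, so these values are descriptions. The closest were Fmo1 (r = 0.84) and Lama2 (0.81) for Igf1, Svil (0.83) and Sulf1 (0.74) for Igfbp5, Adgra2 (0.82) and Mmp2 (0.78) for Igfbp4, Rpsa (0.82) and Plec (0.81) for Igf2r, and Lrrk2 (0.73) and Cav2 (0.67) for Igfbp7. Igfbp2 had Cacnb3 (0.71), Igfbp3 had Mfap5 (0.69) and Efhd1 (0.67), Igfbp6 had Fbn1 (0.59) and Clec3b (0.54), Igf2 had Col6a2 (0.57) and H19 (0.56), and Igf1r had Gm14403 and Zfp583 (both 0.54). Within the family the highest value was 0.58, between Igfbp4 and Igfbp5, and the lowest -0.44, between Igfbp2 and Igfbp7.

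The single-cell libraries of dissociated coronal sutures gave the levels of these transcripts by cluster, without an estimate of the background of free RNA. After filters the E16.5 libraries kept 466 and 337 cells and the E18.5 libraries 2412 and 1577, with median counts of 2501, 2121, 18476 and 7131 UMIs (unique molecules) per cell, and the libraries shared 0 kept barcodes at E16.5 and 4 at E18.5. Cells were clustered without the IGF genes and named from markers, which gave 11 clusters at E16.5 and 16 at E18.5. At E16.5 no cluster was named suture mesenchyme-like. At E18.5 a second ectocranial mesenchyme-like cluster of 224 cells, led by Sostdc1 and Tnmd, stood beside the first of 400 cells. Levels given under this name at E18.5 are those of the first unless stated. Levels below are summed UMIs scaled to the total of the cluster (CPM) in library 1 and library 2, with exact 95% Poisson intervals that cover counting error only. With 2 libraries per stage of different chemistry between stages, no test was made and stages were not compared.

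Igf1 was highest in dura mater-like cells, at 846 (655 to 1074) and 693 (511 to 918) CPM at E16.5 and at 487 (471 to 503) and 570 (502 to 644) CPM at E18.5. Ectocranial mesenchyme-like cells of E16.5 had 487 and 213 CPM. At E18.5 suture mesenchyme-like cells were at 419 and 201 CPM in a first cluster, led by Gpha2 and Adamts8, and 327 and 353 CPM in another, led by Ptx4 and Dpt. Each of these names rested on 2 markers among the leading genes. Gpha2 was also a leading gene of dura mater-like cells at both stages, and of these clusters only the one led by Ptx4 had Hhip among its leading genes. Osteoblast-like cells had 0 Igf1 UMIs in both libraries of E16.5 (upper bounds 81.4 and 50.9 CPM) and 19.8 and 19.4 CPM at E18.5. Erythroid-like cells, which should lack Igf1 and were found in library 2 of E18.5 only, had 5.87 (1.598 to 15.02) CPM.

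**Figure D5:**
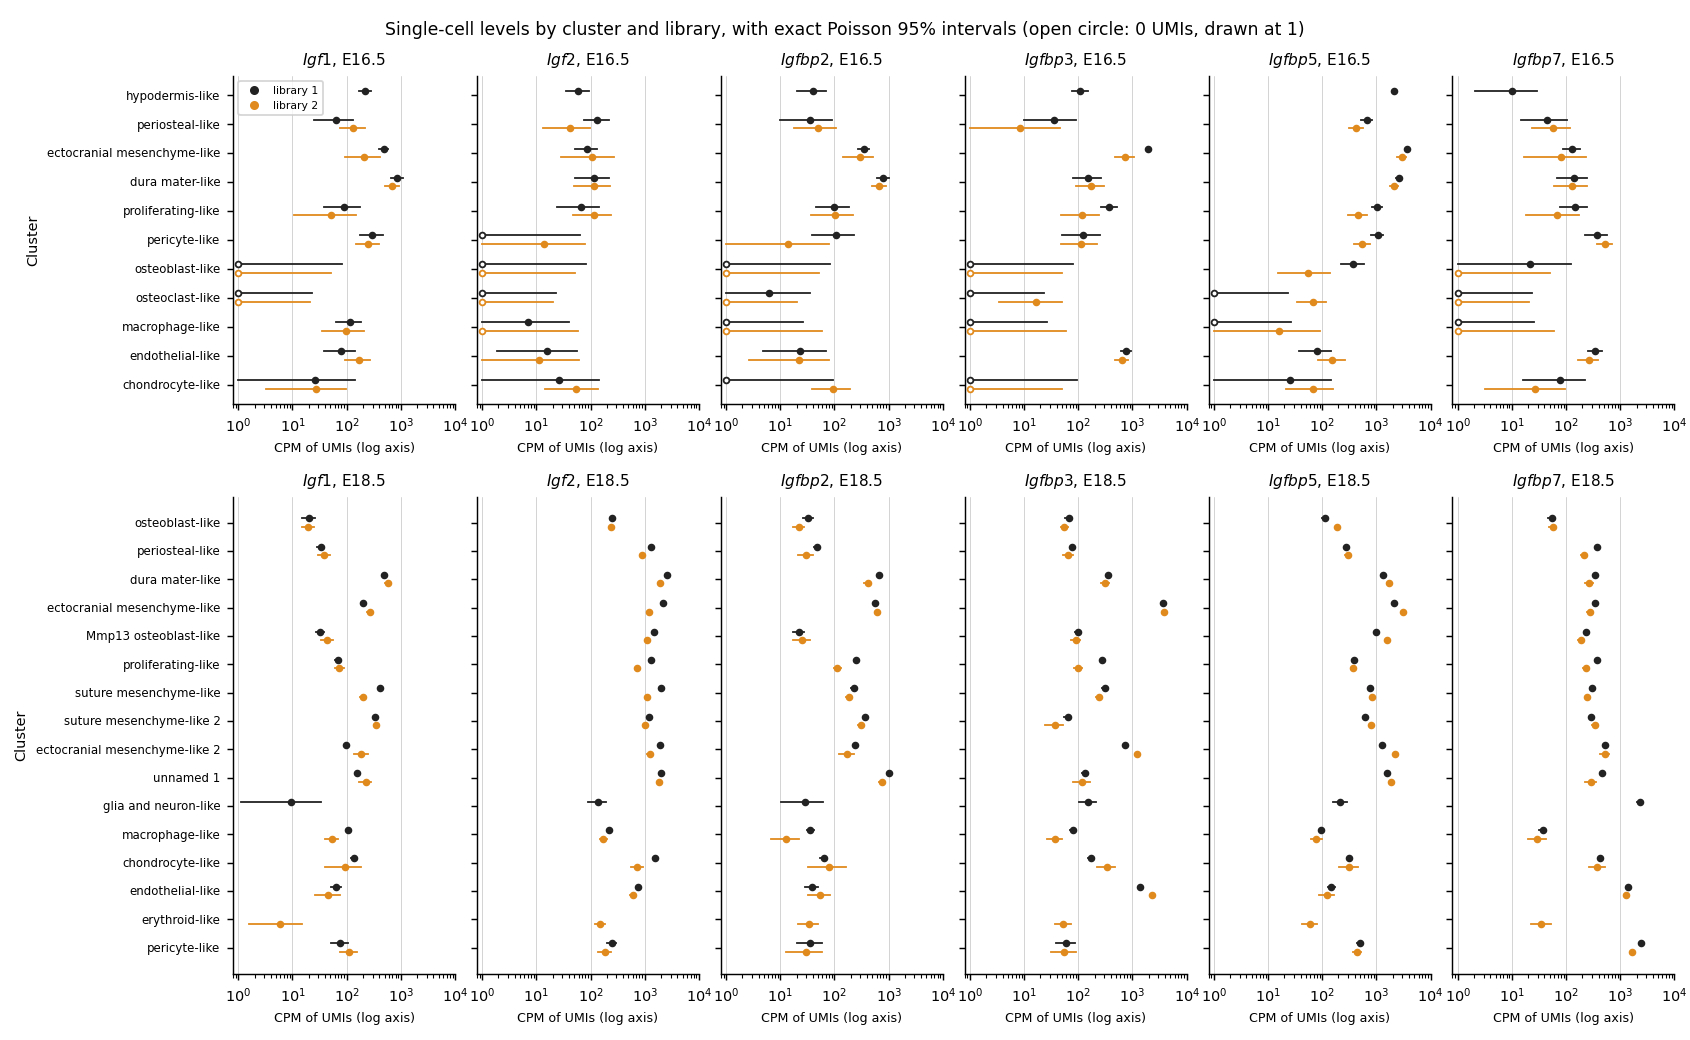
Levels (CPM of summed UMIs, log scale) of Igf1, Igf2, Igfbp2, Igfbp3, Igfbp5 and Igfbp7 by cluster of the coronal single-cell libraries at E16.5 and E18.5, with library 1 in black, library 2 in orange and bars for the exact 95% Poisson interval, and open circles at the left edge for 0 UMIs. Igf1 peaked in dura mater-like cells, Igfbp3 in the first ectocranial mesenchyme-like cluster (3644 and 3754 CPM at E18.5) and Igfbp7 in pericyte-like cells (2374 and 1685 CPM).

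Igf2 at E18.5 was at 2527 and 1934 CPM in dura mater-like cells, at 2145 and 1178 CPM in ectocranial mesenchyme-like cells and at 248 and 238 CPM in osteoblast-like cells. In erythroid-like cells, found in library 2 only, it was at 150 (122 to 182) CPM, and the part of free RNA in this level was not tested. At E16.5 Igf2 was at 114 and 115 CPM in dura mater-like cells and did not exceed 134 CPM in any cluster. At E18.5 Igf1r was at 111 and 143 CPM in ectocranial mesenchyme-like and at 15.3 and 28.4 CPM in macrophage-like cells, and Igf2r at 147 and 237 CPM in dura mater-like and at 30.4 and 37.2 CPM in macrophage-like cells.

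Among the binding proteins, Igfbp2 at E18.5 was highest in an unnamed cluster of 165 cells led by Bace2, Mfap5 and Atp1b1 (1036 and 751 CPM), above dura mater-like (660 and 408 CPM) and ectocranial mesenchyme-like cells (569 and 623 CPM), whose order differed between the libraries, with 32.4 and 22.0 CPM in osteoblast-like and 33.7 CPM in erythroid-like cells. In the 3 other clusterings the highest Igfbp2 and Igfbp6 at E18.5 were in a second dura mater-like cluster. Igfbp3 and Igfbp4 were highest in the first ectocranial mesenchyme-like cluster, at 3644 (3603 to 3686) and 3754 (3628 to 3882) CPM for Igfbp3 and at 2446 and 2067 CPM for Igfbp4. Igfbp3 was also at 1405 and 2247 CPM in endothelial-like cells. The second ectocranial mesenchyme-like cluster was not above the clusters in second place. These were endothelial-like for Igfbp3 (1826 CPM) and the unnamed one for Igfbp4 (1500 CPM, means of the libraries). Igfbp5 was at 2104 and 3041 CPM in the first ectocranial mesenchyme-like cluster, followed by the second one (1757 CPM, mean of the libraries). In dura mater-like cells Igfbp5 was at 1354 and 1743 CPM.

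Among bone-forming clusters at E18.5, Igfbp5 was at 969 and 1583 CPM in the one led by Mmp13. In the osteoblast-like cluster led by Ibsp it was at 112 and 191 CPM. Igf2 differed in the same direction, at 1493 and 1086 CPM against 248 and 238 CPM. The difference was not tested. Igfbp6 was highest in the unnamed cluster at E18.5 (629 and 362 CPM) and in hypodermis-like cells at E16.5 (701 CPM), of which 121 of 122 came from library 1, so that this level stands for 1 library. Igfbp7 was highest in pericyte-like cells, the vessel-associated mural cells, at 369 and 519 CPM at E16.5 and at 2374 (2228 to 2526) and 1685 (1534 to 1847) CPM at E18.5. At E16.5 the 3 other clusterings put it highest in an unnamed or the endothelial-like cluster. Endothelial-like cells followed at 346 and 265 CPM and at 1365 and 1269 CPM, and osteoblast-like cells of E18.5 had 54.4 and 57.2 CPM, beside 35.2 CPM in erythroid-like cells.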

How the data were processed

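Regions were taken by laser capture, and the authors amplified total RNA, made Nextera XT libraries and, per the submitters' processing notes, used cutadapt, STAR 2.5.3a, featureCounts 1.6.4 and mm10. The deposited count of each gene is a whole number of reads without normalization, and reads over more than 1 gene were not counted. The single-cell files hold deposited UMI counts per gene and barcode. A table of the authors' own log2 ratios between groups was not used.

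Genes with at least 1 CPM in more than 10% of the 100 first libraries were kept, scaled by TMM in edgeR 4.0.16 (R 4.3.3) and fitted with 1 mean per group, and two-sided quasi-likelihood tests were adjusted by Benjamini-Hochberg over all genes of a comparison (threshold 0.05). CPM are relative to TMM-scaled totals, and FPKM also to exon bases. The script was tested on simulated data. One gene of the similarity ranking is not reported here. Alternatives were DESeq2 1.42.0, limma-voom (limma 3.58.1), RLE size factors, no filter, a block per embryo, the second coronal libraries and each replicate left out. Leaving out the coronal suture was added after seeing the data. SM and OF of the same number share a litter label and come from the same embryo, and their deviations from the group means had a median correlation of 0.0437 over 60 pairs (15 over 0.1), against -0.0106 over 240 pairs of different embryos.

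The members, the pathway lists, the markers and the tests were chosen with earlier results of these data known. Members were named in full, pathway genes by the threshold and size of their mean difference, and the 2 genes most like each member by correlation.

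Single cells with at least 800 genes and within 3 median absolute deviations were clustered per stage with scanpy 1.11.5 and leidenalg 0.10.2, without the members, pathway genes and globins. A cluster was named for a type with at least 3 detected markers if its 10 leading genes held more markers of that type than of all others, and at most 1 of another. Of 1530, 1482, 2628 and 1999 barcodes, 497, 359, 2625 and 1624 passed the gene minimum and 466, 337, 2412 and 1577 were kept. At E18.5 those over the minimum equal the final cells the study states, at E16.5 they are fewer, and names may differ from its own. No doublet caller was run.

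Each embryo gave 1 library per region, so p-values measure the spread between embryos, except that both OF libraries of an embryo in the coronal and lambdoid sutures entered as separate libraries. For stage no fit accounts for this, nor for the litter label that embryos of a group often shared. Those p-values may be too small. RefSeq promoters were read from a table of GRCm38.p6.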

Additional observations from a re-analysis of the deposited data

Results flagged for a closer look

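In 200 groups of 5 libraries (10 genes in 20 groups), the highest or lowest library stood apart from the others 21 times by Dixon's test, where chance alone gives about 1 in 20 groups. For Igf2 these were sagittal SM at E16.5 (replicate 1, 347 CPM, nearest 244) and coronal FR at E18.5 (replicate 2, 107 CPM, nearest 67.4). For Igf1r they were frontal FR at E16.5 (replicate 5, 158 CPM), sagittal PA at E16.5 (replicate 1, 155 CPM) and coronal FR at E18.5 (replicate 2, 236 CPM), and for Igf2r frontal SM at E18.5 (replicate 3, 241 CPM, nearest 374).

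For Igfbp2 replicate 3 of coronal SM (3.99 CPM) and replicate 2 of coronal PA (9.57 CPM) at E16.5 stood apart, for Igfbp3 replicate 1 of frontal FR at E16.5 (171 CPM) and replicate 2 of lambdoid SM at E18.5 (740.0 CPM, nearest 376). For Igfbp4 these were replicate 3 of frontal SM (226 CPM), replicate 3 of lambdoid PA (282 CPM) and replicate 2 of coronal FR (234 CPM), all at E18.5. For Igfbp5 they were sagittal SM at E18.5 (replicate 1, 1280 CPM), coronal FR at E16.5 (replicate 1, 713 CPM, nearest 284) and coronal SM at E18.5 (replicate 1, 1060 CPM). Igfbp6 had sagittal PA at E18.5 (replicate 3, 1.54 CPM), lambdoid PA at E16.5 (replicate 5, 3.33 CPM) and coronal SM at E18.5 (replicate 3, 2.39 CPM), and Igfbp7 had sagittal PA at E16.5 (replicate 1, 22.6 CPM) and lambdoid PA at E18.5 (replicate 4, 58.4 CPM). Replicate 2 of coronal FR at E18.5 stood apart for Igf2, Igf1r and Igfbp4.

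The excess of SM over OF differed between the coronal and the other sutures, by a test of the difference in the edgeR fit, for Igfbp2 (-1.80), Igfbp4 (-0.59), Igfbp3 (-0.57) and Igfbp7 (0.92), in log2. Between the stages it differed for Igfbp3 (0.74).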

How the results depend on the processing

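Of 85 values of the members past the threshold, 57 kept their call and direction in every alternative fit. Over 902 single values under the alternatives, 814 kept both, 86 kept the direction but missed the threshold, and 2 turned, both with the second coronal libraries: Igf2 in coronal OF between stages (0.24 in log2) and Igf1r in coronal SM between stages (0.13). The cause was not tested. The second libraries accounted for 20 of the 86. With them, the coronal suture differed from the others for 2 members (4 in the first libraries), the SM excess between stages for 0 (1), and the fronts for 1 (2). Leaving out 1 replicate at a time gave 0 to 1 members for the SM excess between stages, 3 to 4 for the mean stage change in SM (5) and 2 to 4 in OF (4), the lowest of both means without replicate 1, when fewer libraries entered. Without the coronal suture, 9 of 60 stage comparisons passed against 24 of 80, the same calls with the coronal ones left out. In the comparisons left, 1.12% to 4.34% of all genes passed, against 27.1% and 33.1% in the coronal SM and OF. This count was added after seeing the data and is no separate check. With a block per embryo, which pairs SM and OF, 42 of 80 comparisons of SM with OF passed (37 without it), 2 members passed between the stages (1), and none of 52 calls it could be fitted to was lost. In single cells, a minimum of 500 genes kept the cluster of highest level for 13 of 20 combinations of gene and stage. Counts were fewest for Igfbp6, with group means of at most 5.18 CPM, and for Igfbp2 in coronal libraries of E16.5. Those coronal libraries were deep but detected only 17274 to 22824 genes, and the part of this in the low counts was not tested. No test covers the single-cell levels.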
